A study of Mus musculus with 46 samples.

Results

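The cytosolic ribosome is built from a small and a large subunit, each made of ribosomal RNA and a fixed set of ribosomal proteins. The small subunit decodes the messenger RNA, the large subunit joins amino acids and holds the exit tunnel for the growing chain, and the acidic stalk of the large subunit recruits elongation factors. Most ribosomal protein messengers start with a run of pyrimidines after the cap, and their translation is controlled together through mTOR signalling. In neurons a share of these messengers is carried into axons and dendrites. The genes described here are the protein-coding mouse genes with an Rpl or Rps symbol, together with Rpsa, Rplp0, Rplp1 and Rplp2, that averaged at least 5 CPM, the unit of counts scaled to library size, over all libraries. The rule used symbol and level and no difference between groups, but it was set with earlier results of these data known. Of 43346 genes in the deposited tables, 92 had such a name and 82 met the rule: 43 of the large subunit, 31 of the small subunit, 3 of the stalk, 4 paralogs that stand beside another member (Rpl7l1, Rpl22l1, Rpl36al and Rps27l) and Rps19bp1, a binding protein of Rps19 that shares its name only.

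From each of 23 mice aged 12 weeks the right striatum and the right cortex were sequenced, which gave 46 libraries, 1 per tissue and animal. The first group of 8 mice was R6/2, a line labelled Tg(HDexon1)62Gpb on a C57BL6/J background whose transgene is exon 1 of human HTT with a long CAG tract under the human promoter, and received the kynurenine 3-monooxygenase inhibitor CHDI-00340246 orally at 30 mg/kg twice-daily. A further 7 R6/2 mice and 8 wild-type (WT) mice received the vehicle, HP-β-CD in citrate buffer, over the same period from 4 to 12 weeks of age. Each group held 4 females and 4 males, except that the R6/2 vehicle group held 3 males. No WT mouse received the inhibitor. Total counts per library, in units of 1e+06, lay between 30.4 and 36.0 in striatum and between 31.8 and 37.8 in cortex. The tissues matched their labels: Drd2, a striatal dopamine receptor, had 19.1 to 205 CPM in striatum against 0.339 to 3.41 CPM in cortex, and the cortical factor Tbr1 had 1.04 to 13.3 CPM in striatum against 96.9 to 170 CPM in cortex. One library stood apart, for these genes and for others. In WT striatum replicate 1 the 82 members held 1.75% of all counts, against 1.19% to 1.33% in the other 7 WT striatal libraries. There 75 of the 82 members were higher than in any other striatal library. The same count over all genes is not given here. The same library had 304 summed CPM of 5 blood markers against 111 to 188 in the other WT striata, and 691 summed CPM of 9 microglial markers against 495 to 637. Its other genes under 1291 bases had a median log2 value of 0.28 against the mean of the other 7 WT striata. Those 7 lay between -0.04 and 0.05. The 18 genes classed as mitochondrial copies held 9.31% of its counts, against 5.67% to 6.80%. In the cortex of the same animal the median member lay at -0.04, within the WT cortex range of -0.10 to 0.08. The part of these features in the result was not tested. The counts of members called, the median member and the changes of single members against WT striatum are therefore given again without WT striatum replicate 1. Counts of separate ranges, medians by pyrimidine run and by length class, and correlations with the median member use all libraries. So do sums with copies and lists of other genes. In the striatum of treated replicate 5, the 9 projection-neuron markers summed to 730 CPM, against 2211 to 3135 CPM in the other 7 treated striata.

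The members were among the short, abundant messengers of both tissues, with a median effective length of 740 bases. On the length-corrected FPKM scale the stalk protein gene Rplp1 was highest, at 548 ± 138 FPKM (SD over 46 libraries). Rps29, a zinc-binding protein of the small subunit, followed with 489 ± 106 FPKM, and Rpl41, which encodes the shortest protein of the ribosome, with 479 ± 63.6 FPKM. Rps15 had 467 ± 60.3 FPKM and Rps24 had 399 ± 45.3 FPKM, both of the small subunit. These 5 genes did not differ beyond their spread from their neighbours in that order. At the other end lay Rpl12 with 10.2 ± 1.83 FPKM and Rps19bp1 with 13.3 ± 1.13 FPKM. The members nearest above the CPM minimum were Rps27l at 7.25 CPM and Rpl27 at 9.95 CPM, and those below it were Rpl10l at 0, Rpl39l at 0.05, Rps27 at 0.197 and Rpl3l at 0.279 CPM. A further 6 genes with such names were not protein-coding (Rpl37rt, Rpl6l, Rps12l1, Rps3a2, Rps3a3 and Rps4l).

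Ribosomal protein genes have many near-identical copies, and the sources used here do not say how reads shared by copies were assigned. For 74 of the 82 members the genome held at least 1 copy with 90% identity over 80% of the coding sequence, 679 copies in all. The members themselves held 86.2% of the counts of their families. The share was above 90% for 57 members and under 20% for 4: Rpl12 (8.72%), Rpl27 (11.8%), Rpl5 (12.7%) and Rpl10 (18.9%). The low place of Rpl12 in the order above therefore goes with copies that summed to 137 CPM. Rps27 shows why a low value here need not mean little messenger. Its coding sequence of 255 bases, at chr3:90212522-90213651 on the minus strand, and that of its copy Rps27rt, at chr9:114982366-114982739 on the minus strand, had 0 mismatches. Rps27rt was listed at 135 CPM and counts among the members. The shared first 90 bases are shown because no read within them can tell the genes apart, with the start codon in capitals.

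Rps27 and Rps27rt: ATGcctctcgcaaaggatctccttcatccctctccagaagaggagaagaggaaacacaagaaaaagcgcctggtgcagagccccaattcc

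The starts of the members carry the second feature that sets them off as sequences. The RefSeq promoter table (GRCm38.p6) held an entry of 300 bases for 62 of the 82 members. A pyrimidine run, counted as a C followed by at least 7 more C or T bases on the gene's strand within 30 bases of the annotated start, was found in 38 of the 62 (61.3%) and in 21.6% of the 26963 other genes of the table. The letters CGGAAG, on either strand anywhere in the 300 bases, were in 42 of the 62 (67.7%) and in 18.7% of the other genes. The windows printed run from 25 bases before to 15 bases from the annotated start, with the run in capitals where one lay inside. Of the 15 members lower in both tissues of R6/2 vehicle mice 10 had an entry, and 8 of these had a run. Rpl38, Rpl31, Rpl27a and Rps25 are shown from the 8, Rpl9 is shown as one of those without a run (Rps19 is the other), and Rpl15 and Rpl7l1 are shown because they were higher in R6/2 cortex.

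Rpl38, chr11:114668555-114668594, plus strand: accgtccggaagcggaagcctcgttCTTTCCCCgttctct

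Rpl31, chr1:39367826-39367865, plus strand: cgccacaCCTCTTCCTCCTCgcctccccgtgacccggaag

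Rpl27a, chr7:109519170-109519209, plus strand: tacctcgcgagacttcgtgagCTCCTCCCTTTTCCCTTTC

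Rps25, chr9:44407689-44407728, plus strand: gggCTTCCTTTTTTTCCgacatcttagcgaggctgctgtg

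Rpl9, chr5:65391417-65391456, minus strand: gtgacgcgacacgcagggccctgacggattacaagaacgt

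Rpl15, chr14:18270972-18271011, minus strand: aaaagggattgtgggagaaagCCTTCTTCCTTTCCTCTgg

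Rpl7l1, chr17:46782642-46782681, minus strand: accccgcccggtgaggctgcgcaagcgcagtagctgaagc

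The run spanned 8 bases in Rpl38, 13 in Rpl31, 20 in Rpl27a, 14 in Rps25 and 17 in Rpl15. In Rpl27a 19 of its bases lie inside the printed window, and the run goes on past its end. In Rpl31 and Rps25 the run begins 18 and 22 bases before the annotated start and ends before it. There was none near the annotated starts of Rpl9 and Rpl7l1. Members with and without a run had nearly the same median change in R6/2 vehicle striatum against WT, with log2 medians of -0.18 and -0.17. By calls, a run was found in 16 of 21 members lower there (76.2%) and in 22 of 40 not called (55%). That difference was not tested.

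In the striatum of R6/2 vehicle mice, 31 of the 82 members were lower than in WT and 1 was higher (edgeR quasi-likelihood test, Benjamini-Hochberg adjusted p under 0.05 over all genes). The background was wide: 49.8% of the 17661 genes tested were called, 24.2% lower and 25.6% higher. The median member changed by -0.18 on the log2 scale, against 0.00 for all genes, and 77 of the 82 values were negative, with a range of -0.40 to 0.31. These are small differences, at most 1.32-fold. The lower calls comprised 19 of 43 large subunit genes, 11 of 31 small subunit genes, 1 of 4 paralogs and none of the 3 stalk genes. They depended on the scale in a way that touches their direction. With library totals alone the median of all genes moved to 0.13 and the median member to -0.06, so the members stood 0.18 below all genes under either scaling, but 10 members were then called lower and 4 higher, while 15.9% of all genes were lower and 39.7% higher. Without WT replicate 1 the members' median was -0.10, with 29 lower and 2 higher (23.8% and 26.0% of all genes), and 28 of the 31 lower calls remained (Rpl13a, Rpl23a and Rpl4 were lost). Without that library and with library totals alone the median was 0.02, against 0.13 for all genes, with 9 lower and 12 higher (15.7% and 40.9% of all genes).

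**Figure D1:**
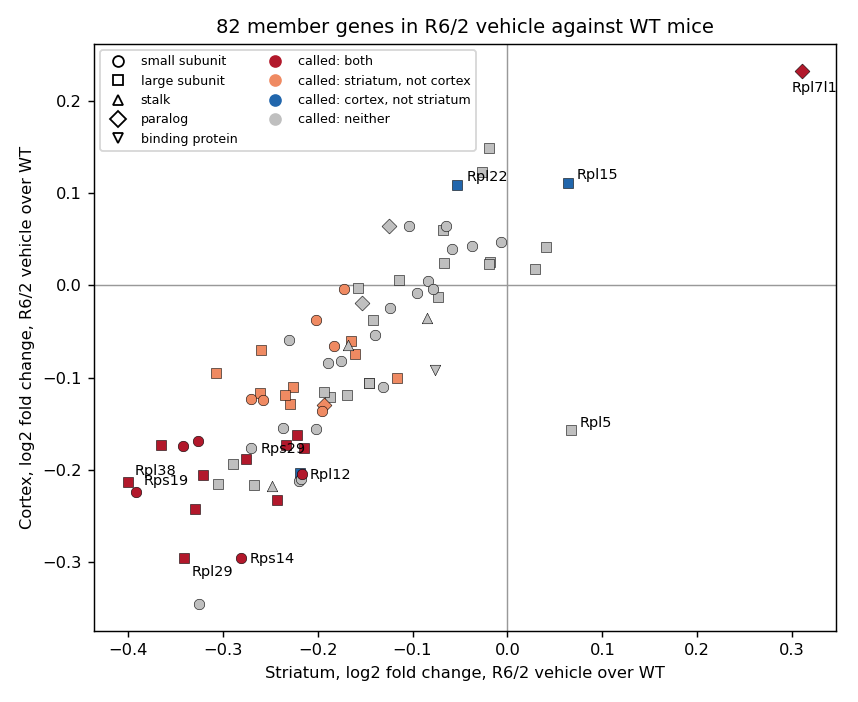
Log2 fold change of R6/2 vehicle over WT in the striatum (horizontal axis) and the cortex (vertical axis) for the 82 members, 1 point per gene, with shape for role and colour for the tissues in which it was called. Most points lie left of 0, 15 genes were lower in both tissues, and Rpl7l1 lies alone at the upper right.

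As a share of each library's total counts, which is a scaling by library totals alone, the sum of the members overlapped between groups. They held 1.202% to 1.31% of the counts in treated R6/2 striatum (median 1.27%), 1.15% to 1.35% in R6/2 vehicle striatum (median 1.28%) and 1.19% to 1.75% in WT striatum (median 1.24%). The WT median was the lowest of the 3, and all groups overlapped. The same measure was 1.017% to 1.25% in treated cortex (median 1.14%), 0.988% to 1.21% in vehicle cortex (median 1.09%) and 1.01% to 1.16% in WT cortex (median 1.08%). The sum thus did not separate the groups. In bulk tissue, fewer cells of a type and less RNA per cell cannot be told apart.

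**Figure D2:**
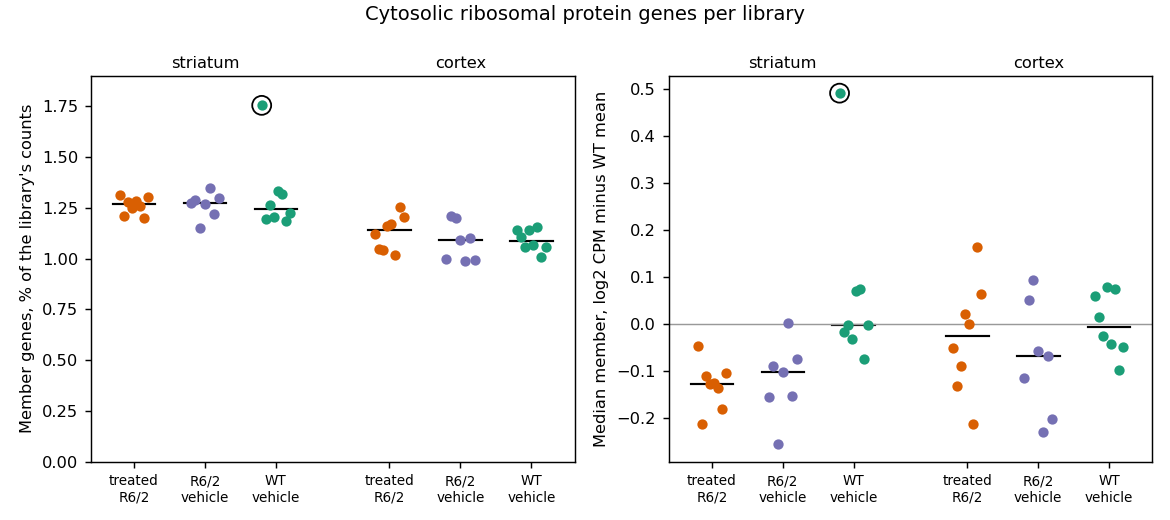
Left, summed share of a library's counts held by the 82 members, in percent; right, the median member's log2 CPM minus the WT mean of that tissue, taken without WT striatum replicate 1. Each point is a library, lines are group medians, and the ringed point is WT striatum replicate 1 at 1.75% and 0.49; the shares overlap between groups, while the treated striata lie between -0.21 and -0.05 on the right.

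The individual genes with the largest lower values in striatum were spread over both subunits. Rpl38, a large subunit protein known in mouse for its part in translating patterning genes of the embryo, had 64.8 to 91.3 CPM in R6/2 vehicle striatum (median 80.6), against 84.1 to 151 CPM in WT striatum (median 105). The groups overlapped at their edges, and the difference was -0.40 ± 0.09 on the log2 scale (SE, n = 7 and 8, edgeR adjusted p = 0.00078). Rps19, a small subunit protein mutated in human Diamond-Blackfan anaemia, had 112 to 134 CPM in vehicle (median 124) and 145 to 229 CPM in WT (median 157). Every vehicle library lay below every WT library, with a log2 change of -0.39 ± 0.07 (adjusted p = 0.00013, edgeR). Rpl31, which lies by the exit tunnel, had 167 to 197 CPM in vehicle (median 170) and 201 to 304 CPM in WT (median 220). Its groups did not overlap either, at -0.36 ± 0.07 (adjusted p = 0.00011, edgeR). Rps24 had 170 to 210 CPM in vehicle (median 185) and 211 to 308 CPM in WT (median 233), with a log2 change of -0.34 ± 0.06 and adjacent, non-overlapping ranges (adjusted p = 0.00011, edgeR).

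Genes of the large subunit followed the same order of values. Rpl29 had 115 to 135 CPM in vehicle striatum (median 121) against 138 to 214 CPM in WT (median 147). Rpl27a had 89.8 to 102 CPM in vehicle (median 95.8) against 110 to 171 CPM in WT (median 115). Rpl9 had 263 to 311 CPM in vehicle (median 279) against 327 to 462 CPM in WT (median 337). In none of the 3 did the groups overlap, and their log2 changes were -0.34 ± 0.08, -0.33 ± 0.07 and -0.32 ± 0.06 (adjusted p = 0.00063, 0.00071 and 0.00017, edgeR). Rps25, a small subunit protein needed by some viral internal ribosome entry sites, fell by 0.33 ± 0.07 (adjusted p = 0.00078, edgeR), with ranges that overlapped. Rpl35a fell by 0.31 ± 0.07 (adjusted p = 0.0012, edgeR). Ranges were apart for 8 of the 82 members, which included the one higher gene, against 21.2% of all genes tested.

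These genes kept their calls without WT replicate 1, at smaller sizes. The log2 change was then -0.31 for Rpl38, -0.31 for Rps19, -0.30 for Rpl31, -0.28 for Rps24, -0.26 for Rpl29, -0.24 for Rpl27a, -0.25 for Rpl9, -0.25 for Rps25 and -0.23 for Rpl35a. Of the 31 lower calls, 8 held in every one of 29 settings tried, including the scalings above and each library left out in turn: Rpl27a, Rpl29, Rpl31, Rpl38, Rpl9, Rps19, Rps24 and Rps25.

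Rpl7l1 moved the other way. It encodes a paralog of the large subunit protein Rpl7 that works in the nucleolus in assembly of the large subunit. Rpl7l1 had 40.0 to 45.0 CPM in treated R6/2 striatum (median 43.8), 41.2 to 45.8 CPM in R6/2 vehicle striatum (median 43.0) and 31.0 to 36.6 CPM in WT striatum (median 35.2). Every R6/2 library lay above every WT library, and the vehicle change was 0.31 ± 0.04 on the log2 scale (adjusted p = 4.6e-07, edgeR), or 0.32 without WT replicate 1. In cortex it had 41.9 to 50.3 CPM in treated (median 46.7), 43.3 to 50.9 CPM in vehicle (median 45.8) and 34.4 to 43.3 CPM in WT (median 39.0). The vehicle change in cortex was 0.23 ± 0.05 (adjusted p = 0.0012, edgeR), and it held in all 28 settings tried there. Its partner Rpl7 had 235 to 279 CPM in vehicle striatum (median 252) and 234 to 318 CPM in WT striatum (median 262), a log2 change of -0.07 ± 0.05 that did not pass the test (adjusted p = 0.32, edgeR), and -0.03 without WT replicate 1.

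None of the other paralogs was called higher. Rpl36al, a near copy of Rpl36a, had 32.4 to 41.7 CPM in vehicle striatum (median 37.5) against 38.4 to 49.4 CPM in WT (median 41.4), and fell by 0.19 ± 0.05 (adjusted p = 0.0054, edgeR). Rpl36a fell by 0.23 ± 0.08 (adjusted p = 0.017, edgeR). Rpl22l1 changed by -0.15 ± 0.07 and Rps27l, a target of p53, by -0.12 ± 0.09, neither past the threshold (adjusted p = 0.058 and 0.25, edgeR). Rps27rt, identical to Rps27 in coding sequence, fell by 0.26 ± 0.09 (adjusted p = 0.021, edgeR), with 113 to 157 CPM in vehicle and 128 to 231 CPM in WT. Without WT replicate 1 the changes were -0.15 for Rpl36al, -0.15 for Rpl36a and -0.17 for Rps27rt, all still called, and -0.11 for Rpl22l1 and -0.05 for Rps27l.

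The stalk genes and the pair Rpl5 and Rpl11, which bind Mdm2 when ribosome assembly fails, were not called in vehicle striatum. Rplp0, the stalk base, had 159 to 177 CPM in vehicle (median 165) and 164 to 231 CPM in WT (median 171), a log2 change of -0.09 ± 0.06 (adjusted p = 0.23, edgeR). Rplp1 changed by -0.25 ± 0.12 (adjusted p = 0.098, edgeR) and Rplp2 by -0.17 ± 0.13 (adjusted p = 0.31, edgeR). Their spread between libraries was wider than that of Rplp0: Rplp1 had 228 to 355 CPM in vehicle and 279 to 584 CPM in WT. Rpl11 changed by -0.11 ± 0.07 and Rpl5 by 0.07 ± 0.13 (adjusted p = 0.18 and 0.70, edgeR). The sign of Rpl5 turned when its copies were added, to -0.06. Of the most abundant members, Rps29 changed by -0.27 ± 0.12 and Rpl41 by -0.19 ± 0.09 without passing the test (adjusted p = 0.077 and 0.075, edgeR), and Rps15 fell by 0.20 ± 0.07 (adjusted p = 0.028, edgeR). These lower values were smaller without WT replicate 1: -0.02 for Rplp0, -0.11 for Rplp1, -0.01 for Rplp2, -0.06 for Rpl11, -0.14 for Rps29, -0.10 for Rpl41 and -0.12 for Rps15, which was still called (adjusted p = 0.024, edgeR). Rpl5 was at 0.14 without it.

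**Figure D3:**
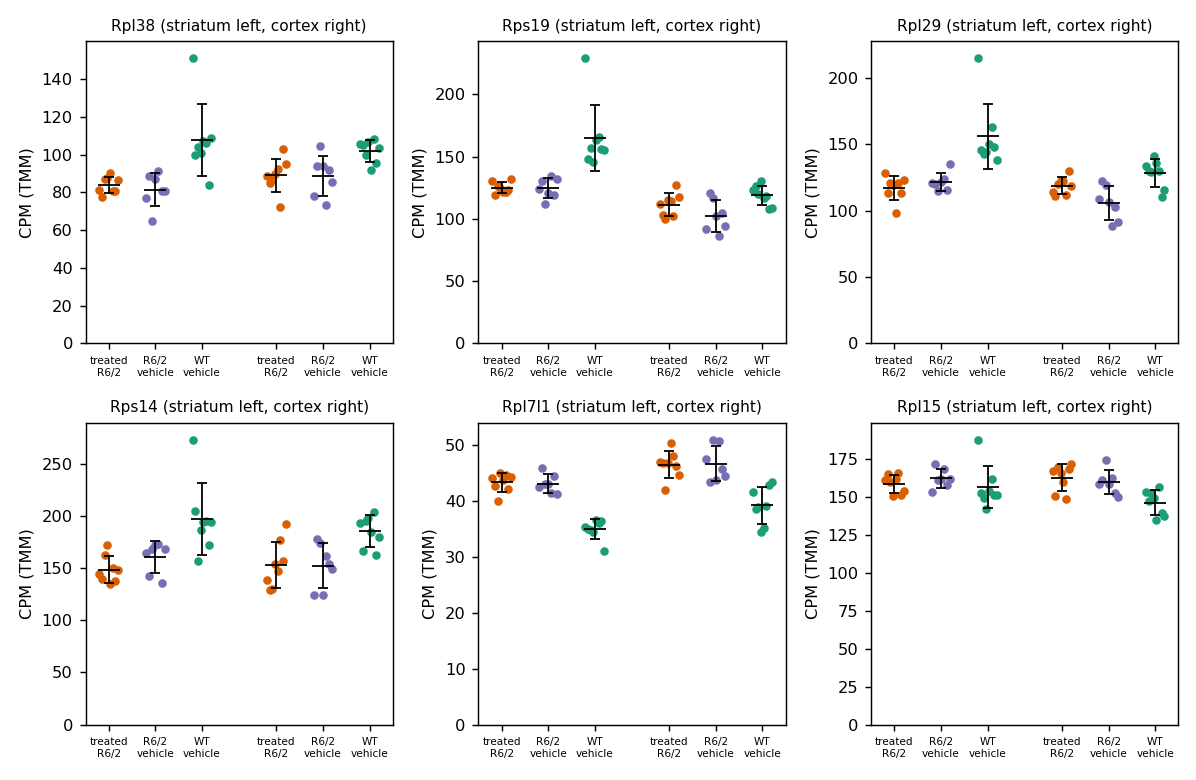
CPM of 6 members in each library by group, striatum left and cortex right in each panel, 1 point per library with mean and SD, each gene on its own linear axis from 0. Rps19 and Rpl29 of every R6/2 striatum lie below the WT striata, Rpl7l1 of every R6/2 striatum lies above them, and WT striatum replicate 1 is the high point in 5 of the panels.

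Summing each member with its near-identical copies changed the picture for a few families. With copies summed, 43 members were called lower in vehicle striatum and 1 higher (24.5% and 25.7% of all genes). Rpsa, the laminin receptor homologue of the small subunit, changed by -0.32 alone (adjusted p = 0.13, edgeR) and by -0.42 with its copies (adjusted p = 8.5e-06). Its family was likewise lower in cortex, by -0.40 (adjusted p = 1.4e-05). The Rpl12 family, of which the member holds the smallest share, changed by -0.27 in striatum and by -0.34 in cortex (adjusted p = 0.0079 and 1e-05, edgeR). Rps12 changed by -0.24 alone and by -0.31 with its copies (adjusted p = 0.084 and 0.0015, edgeR). The changes of the genes alone were smaller without WT replicate 1, at -0.22 for Rpsa and -0.13 for Rps12 (adjusted p = 0.28 and 0.20, edgeR). The Rpsa result was looked up after its values were seen.

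Treated R6/2 striatum was compared with WT in the same fit and shares its WT libraries with the comparison above. There 41 members were lower and 1 higher, with a median of -0.20, while 24.8% of all genes tested were lower and 27.4% higher. The lower calls comprised 25 large subunit genes, 14 of the small subunit, 1 stalk gene and 1 paralog. With library totals alone 10 were lower and 5 higher (16.1% and 42.8% of all genes). Without WT replicate 1 there were 35 lower and 3 higher (24.5% and 27.8% of all genes), and the median was -0.12. Without treated replicate 5 there were 40 lower and 1 higher (26.1% and 27.1% of all genes). Rpl31 had 149 to 181 CPM in treated striatum (median 167), below every WT library, and fell by 0.44 ± 0.07 (adjusted p = 5.2e-06, edgeR). Rpl27a had 85.8 to 98.6 CPM in treated striatum (median 91.1) and fell by 0.41 ± 0.07 (adjusted p = 3.5e-05, edgeR). Rplp1 had 249 to 310 CPM in treated striatum (median 269) and fell by 0.37 ± 0.12 (adjusted p = 0.011, edgeR). Without WT replicate 1 the changes were -0.37 for Rpl31, -0.32 for Rpl27a and -0.22 for Rplp1, all still called. The ranges of 17 members lay apart from WT, against 19.5% of all genes.

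The inhibitor itself was set against vehicle within R6/2. No member was called in either tissue, and no gene of the whole table was called (percent called 0 in striatum and 0 in cortex, edgeR). At an unadjusted p under 0.05 there were 0 members in striatum, beside 468 of all genes, and 3 in cortex (Rpl29, Rpl18 and Rpl8), beside 1013 of all genes. The median member differed by -0.01 in striatum and by 0.04 in cortex, and all single values lay within -0.16 and 0.22. The 2 groups overlapped for every member in both tissues, while 0.017% of genes in striatum and 0.0169% in cortex had ranges apart. Rpl38 had 77.6 to 90.1 CPM in treated striatum (median 83.7) and 64.8 to 91.3 CPM in vehicle striatum (median 80.6), a log2 difference of 0.05 ± 0.09. Rps19 had 119 to 132 CPM in treated striatum and 112 to 134 CPM in vehicle striatum, with medians of 124 CPM in each and a difference of 0.01 ± 0.07. In cortex the highest value was that of Rpl36, 0.22 ± 0.19, with 29.9 to 62.0 CPM in treated and 21.0 to 55.1 CPM in vehicle. DESeq2 called 0 members in both tissues as well. A difference has to be several times its standard error to pass the test, so differences of the size of these standard errors could have been missed.

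In the cortex of R6/2 vehicle mice 16 members were lower and 3 higher than in WT, with a median of -0.10 against 0.00 for all genes, of which 22.4% were lower and 21.1% higher. The share of members called lower was 19.5%, below that of all genes. The count of lower members was 12 to 26 when 1 library was left out. The 26 came without vehicle replicate 3, where 22.4% of all genes were lower, so that the members' share was then above that of all genes, as it was in the fits with the library tag given below. With library totals alone the members' median was -0.02, 0.11 below that of all genes, with 1 lower and 6 higher (17.0% and 31.7% of all genes). The lower genes were 11 of the large and 5 of the small subunit, and 15 of the 16 were also lower in striatum; the exception was Rpl12. No member was called in opposite directions in the 2 tissues, and 47 were called in neither. The 2 tissues come from the same animals.

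Rps14, a small subunit protein lost in a human myelodysplastic syndrome, had 125 to 178 CPM in vehicle cortex (median 154) and 163 to 204 CPM in WT cortex (median 189). The ranges overlapped and the gene fell by 0.30 ± 0.09 (adjusted p = 0.0098, edgeR). Rpl29 had 88.0 to 122 CPM in vehicle cortex (median 106) against 110 to 141 CPM in WT cortex (median 130), and fell by 0.30 ± 0.07 (adjusted p = 0.00074, edgeR). It was the one lower gene of cortex whose call held in all 28 settings tried. Rpl27a fell by 0.24 ± 0.07 and Rpl13a, which in human cells also acts in interferon-dependent silencing of messengers, by 0.23 ± 0.07 (adjusted p = 0.0039 and 0.012, edgeR). Rps19, Rpl38, Rpl9 and Rpl12 fell by 0.20 to 0.22, and ranges overlapped for all of them. Ranges were apart for 1 of the 82 members, Rpl7l1, by a narrow margin, against 16.2% of all genes.

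Higher in vehicle cortex beside Rpl7l1 were Rpl15 and Rpl22. Rpl15, needed for early steps of large subunit assembly, had 150 to 174 CPM in vehicle cortex (median 159) and 135 to 157 CPM in WT cortex (median 148), a rise of 0.11 ± 0.04 (adjusted p = 0.046, edgeR). Rpl22, a large subunit protein that ribosomes can lack, had 87.4 to 105 CPM in vehicle (median 101) and 86.0 to 94.5 CPM in WT (median 90.5), a rise of 0.11 ± 0.04 (adjusted p = 0.048, edgeR). Both calls lay near the threshold: each was lost in 10 of the 15 fits without 1 library and held in 13 of the 28 settings. In treated cortex against WT 11 members were lower and 4 higher, with a median of -0.04, while 23.5% of all genes were lower and 22.5% higher. Leaving out 1 library gave 6 to 15 lower members and medians of -0.08 to -0.01. Treated replicates 2 and 3 moved the count most, to 7 lower and 7 higher without replicate 2 and to 6 lower and 6 higher without replicate 3. With library totals alone 0 were lower and 14 higher, while 17.4% of all genes were lower and 33.6% higher. The higher genes were Rpl7l1, Rpl15, Rps9 and Rpl18, and ranges were apart for 0 of the 82, against 17.1% of all genes. The library names carry a tag, L1 to L8, and in cortex all treated libraries have L5 or L6 and all WT libraries L7 or L8, so no tag holds both. The vehicle libraries fall in all 4, and through them a fit with the tag as a covariate was possible. In treated cortex against WT it had 5 members lower and 0 higher (12.2% and 9.68% of all genes). The log2 changes of the 4 higher genes were then 0.17 for Rpl7l1, 0.085 for Rpl15, 0.035 for Rps9 and -0.035 for Rpl18, none called (adjusted p = 0.21, 0.50, 0.80 and 0.81, edgeR). In vehicle cortex against WT the same fit had 21 lower and 1 higher (18.8% and 16.8% of all genes), and over the tags that hold both groups 26 members were lower and 1 higher (21.4% and 19.9% of all genes).

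Whether the R6/2 effect differed between the tissues was tested directly, with the animal as a block. No member passed that test, while 8.66% of 18122 genes had a lower and 7.01% a higher effect in striatum. At an unadjusted p under 0.05 there were 7 members, a count that is not set beside that of all genes here. With copies summed 1 member passed, Rpl31, at -0.26 (adjusted p = 0.039, edgeR). The median difference was -0.10, against -0.02 for all genes, and it was -0.03 without the animal of WT replicate 1. The lowest adjusted p was that of Rpl22, at -0.18 ± 0.07 (0.067, edgeR), or -0.13 without that animal. Larger numbers of calls in striatum are therefore not shown to be a larger effect. For the inhibitor's effect no member passed the test of a tissue difference either (0 called of all genes). There 6 members had an unadjusted p under 0.05, again not set beside all genes.

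**Figure D4:**
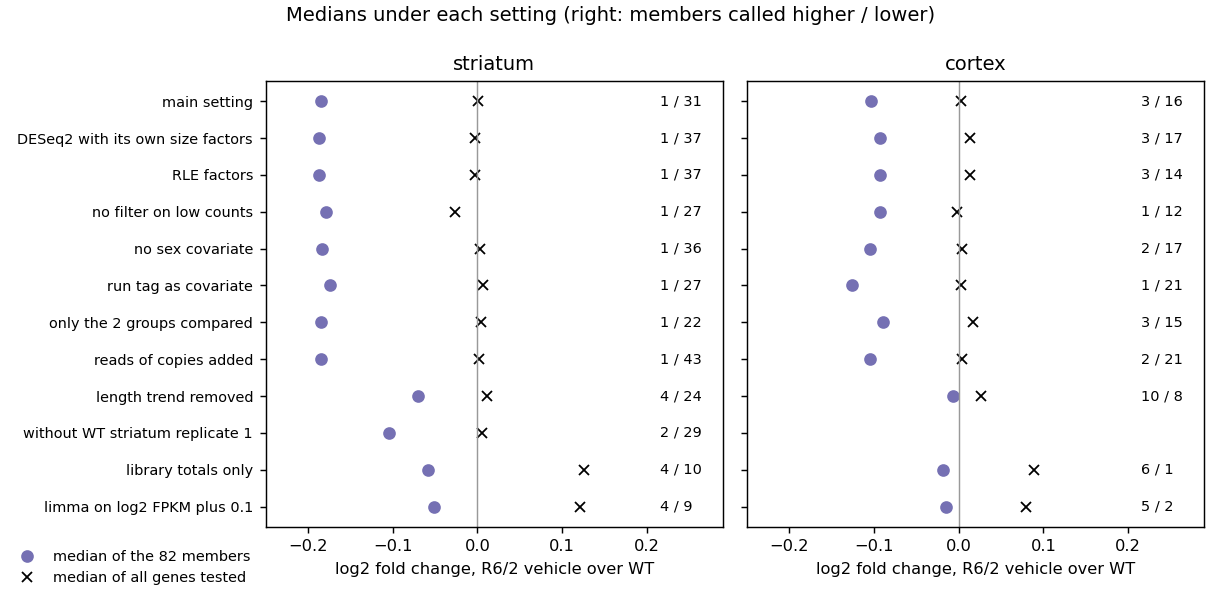
Median log2 fold change of the 82 members and of all genes tested for R6/2 vehicle over WT (horizontal axis) under each setting listed, by tissue, with the counts of members called higher and lower at the right of each panel. The members' median lies below that of all genes in every setting drawn, while the position of both relative to 0 moves with the scaling.

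The members also differed between the tissues of WT animals. In the 8 WT animals, 51 of the 82 members were higher in striatum than in cortex and 3 were lower, with a median of 0.21 (62.7% of 17051 genes were called, 31.1% higher and 31.6% lower, median 0.01). With library totals alone the counts were 55 and 2 (33.5% and 29.5% of all genes), and without the animal of replicate 1 they were 53 and 6 (33.7% and 33.1%) with a median of 0.14. The small subunit had 24 of 31 genes higher, the large subunit 23 of 43 and the stalk 3 of 3. Rps12 had 52.2 to 104 CPM in WT striatum (median 63.5) and 32.8 to 60.5 CPM in WT cortex (median 45.0). Paired by animal it was higher in striatum in 8 of 8, by 0.58 ± 0.11 (adjusted p = 0.0010, edgeR). Of the 82 members 42 were higher in all 8 animals and 0 were lower in all 8. The same counts were not taken over all genes. Rpl31 had 201 to 304 CPM in WT striatum (median 220) and 137 to 162 CPM in WT cortex (median 150), with no overlap and a difference of 0.55 ± 0.08 (adjusted p = 4.4e-05, edgeR). Without the animal of replicate 1 the differences were 0.52 for Rps12 and 0.47 for Rpl31.

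Among the stalk genes Rplp2 was higher by 0.54 ± 0.09 and Rplp1 by 0.53 ± 0.11 (adjusted p = 0.00032 and 0.0012, edgeR), while Rplp0 was higher by 0.17 ± 0.06 (adjusted p = 0.036, edgeR). Rps9, of the small subunit, had 190 to 280 CPM in WT striatum (median 199) and 128 to 156 CPM in WT cortex (median 148), and was higher by 0.49 ± 0.06 (adjusted p = 2.3e-05, edgeR). Rps6, the small subunit protein that S6 kinases phosphorylate, had 200 to 297 CPM in WT striatum (median 227) and 155 to 186 CPM in WT cortex (median 170), and was higher by 0.43 ± 0.07 (adjusted p = 0.00012, edgeR). The 3 lower genes were Rpl5 by 0.31 ± 0.07, Rpl7l1 by 0.19 ± 0.04 and Rps15a by 0.14 ± 0.05 (adjusted p = 0.0024, 0.00094 and 0.043, edgeR). Rpl5 had 26.5 to 42.4 CPM in WT striatum and 29.9 to 48.1 CPM in WT cortex, and with its copies summed the difference was 0.15 (adjusted p = 0.048). The call of Rps15a held in 2 of the 5 settings tried. Without the animal of replicate 1 the differences were 0.46 for Rplp2, 0.46 for Rplp1, 0.12 for Rplp0, 0.44 for Rps9, 0.39 for Rps6, -0.37 for Rpl5, -0.21 for Rpl7l1 and -0.18 for Rps15a, all called.

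**Figure D5:**
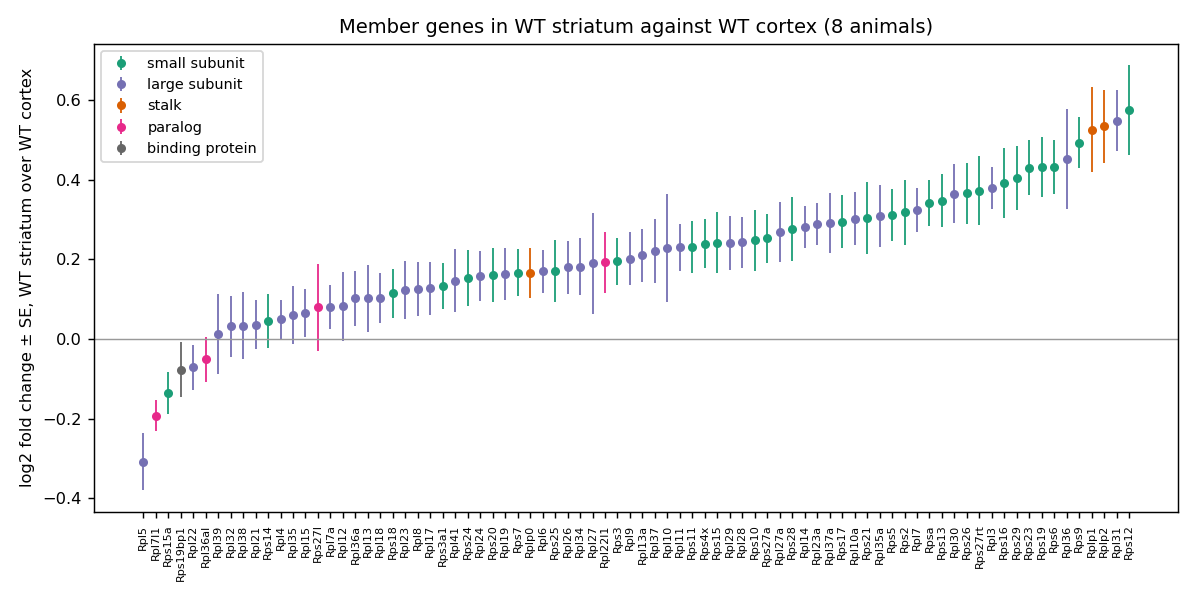
Log2 fold change of WT striatum over WT cortex for 80 of the 82 members in order of size, points with SE bars coloured by role, n = 8 animals. Most genes of both subunits and all 3 stalk genes lie above 0, and Rpl5 and Rpl7l1 lie below it.

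How far the members moved together was described within each tissue by correlating each gene's log2 FPKM over 23 libraries with the median member. The median Pearson correlation was 0.81 in striatum and 0.74 in cortex, and 67 and 65 members were over 0.5. The libraries share depth and length effects, so the values are a description only. Rpl37a (0.96 and 0.95) and Rpl34 (0.95 and 0.93) were most like the median member. Least like it were Rps2 (-0.03 in striatum and 0.07 in cortex) and Rpl7l1 (-0.13 and 0.01).

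The members are short, and with WT replicate 1 included short messengers as a class had medians below 0 in R6/2 vehicle striatum. In the shortest class of length (under 611 bases) the median was -0.20 for members and -0.13 for 440 other genes. In the middle class it was -0.22 for members and -0.06 for other genes. In the longest class, above 862 bases, it was -0.08 for members and 0.01 for 16293 other genes. Against the mean of the other 7 WT striata, the shift of other short genes was smaller. The median of those under 1291 bases then averaged -0.02 over vehicle striata (-0.11 to 0.06) and -0.02 over treated striata. The median member averaged -0.12 over vehicle striata (-0.26 to 0.00) and -0.13 over treated striata. In WT striatum against WT cortex the same classes had member medians of 0.28, 0.21 and 0.17, and other genes 0.01, 0.04 and 0.00. How far length bears on the result in R6/2 was not tested beyond these values and a fit with each library's trend on length removed. That fit left 24 members lower and 4 higher in vehicle striatum (24.2% and 27.6% of all genes), with a median of -0.07, and 35 lower and 4 higher in treated striatum (25.2% and 29.3%). With WT replicate 1 also left out, it gave 22 lower and 4 higher in vehicle striatum (23.8% and 27.4%) and 30 lower and 4 higher in treated striatum (24.7% and 28.8%). In cortex it left 8 lower and 10 higher in vehicle (21.6% and 24.3%), with a median of -0.01. In treated cortex against WT it had 5 lower and 15 higher (22.8% and 25.4%).

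Other genes of the ribosome and of its supply were read from lists. The ubiquitin-like fusion gene Fau changed by -0.07 and Rack1, a scaffold on the small subunit, by -0.00 in vehicle striatum against WT, neither called (edgeR). Of 77 mitochondrial ribosomal protein genes 8 were higher and 9 lower in vehicle striatum, where 25.6% of all genes were higher and 24.2% lower. In vehicle cortex 9 were higher and 8 lower (21.1% and 22.4% of all genes), and in treated cortex against WT 12 and 4 (22.5% and 23.5%). Mrpl39 was the most significant of them, higher in vehicle striatum by 0.49 ± 0.04 (adjusted p = 1.9e-09, edgeR). Of 19 other genes whose messengers start with a pyrimidine run, 5 were higher and 5 lower in striatum. Tpt1, a highly expressed growth-related protein, fell by 0.38 ± 0.08, and the elongation factor Eef1a1 rose by 0.21 ± 0.05 (adjusted p = 0.00049 and 0.00058, edgeR).

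Genes that work upstream of the ribosome were read list by list. In vehicle striatum higher calls outnumbered lower ones in each list, as they did over all genes (25.6% higher and 24.2% lower). The share of assembly genes called higher was near that of all genes. Whether any list differed from all genes was not tested. Of 28 initiation factor genes 14 were higher and none lower in vehicle striatum (median 0.10), and 8 were higher and 1 lower in cortex. Of 35 ribosome assembly genes 10 were higher and 5 lower in striatum, and of 12 RNA polymerase I genes 5 were higher and 1 lower. Of 26 genes of mTOR and translation control 9 were higher and 6 lower, a list that also held Pdk1, a kinase of pyruvate dehydrogenase. Of 11 transcription factors linked to ribosomal protein genes 6 were higher and 2 lower. In vehicle cortex 21.1% of all genes were higher and 22.4% lower. There 10 assembly genes were higher and 4 lower, and 2 and 1 of the RNA polymerase I genes. For mTOR and translation control the counts were 9 and 3, and for the transcription factors 4 and 3. In treated cortex against WT, where 22.5% of all genes were higher and 23.5% lower, the counts were 7 higher and 1 lower for initiation factors, 11 and 4 for assembly genes, 2 and 2 for RNA polymerase I genes, 6 and 4 for mTOR and translation control, and 3 and 4 for the transcription factors. Beside these counts, markers of most cell types were lower in R6/2 vehicle than in WT striatum. The 9 projection-neuron markers summed to 2558 to 2937 CPM in vehicle and 6408 to 8583 CPM in WT, the 8 astrocyte markers to 2858 to 3837 against 5124 to 6267 CPM, and the 5 blood markers to 49.1 to 102 against 111 to 304 CPM. In cortex the 8 cortical projection-neuron markers summed to 1327 to 1787 CPM in vehicle and 1792 to 2035 CPM in WT, and the astrocyte markers to 3097 to 4517 against 5283 to 7591 CPM. Treated striata had 730 to 3135 CPM of the projection-neuron markers. None of the markers was under 0.1 CPM. Their part in the member results was not tested.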

How the data were processed

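The authors deposited estimated counts and FPKM values per gene for the 46 libraries. CASAVA 1.8.2 and the build mm10 stand in the submitters' processing notes. Aligner, quantifier, annotation and strandedness were not given in the sources used here, so a gene and an antisense partner cannot be told apart. Of the nonzero deposited estimated counts 33.8% were not whole (tolerance 1e-06), and they were rounded before testing. The deposited FPKM values are scaled by the authors to length and library size. Tests used R 4.3.3 and edgeR 4.0.16 (quasi-likelihood, TMM scaling, filterByExpr, Benjamini-Hochberg adjustment over all genes, threshold 0.05). Each tissue was fitted with all 3 groups and sex; tissue effects used the animal, from codes in the library names, as a block. CPM values are TMM-scaled over all libraries, and SE is the log2 change over the square root of F. Alternatives used limma 3.58.1 (log2 FPKM plus 0.1 or 1) and DESeq2 1.42.0. The libraries had no molecular identifiers. With 1 library per tissue and animal, p-values measure spread between libraries, in which animal and preparation cannot be told apart. For tissue effects this spread is taken within animals. The scripts were tested on simulated data.

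Members and gene lists were chosen with earlier results of these data known. Named members were the 5 highest by FPKM, the 10 largest called changes per tissue in R6/2 vehicle over WT with up to 5 called per direction, the 8 largest between WT tissues, paralogs with their partners, stalk genes, Rpl5 and Rpl11, and the 2 most and 2 least like the median member; lists gave up to 4 examples. Copies were found by aligning coding sequences to transcripts of GENCODE vM21. Results for a few single genes are not reported here. Genes of mouse chromosome 18 are shown without sequence. Libraries of 1 group differed by a chi-square per degree of freedom of at least 7.72, so no library appeared to be deposited a second time.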

Additional observations from a re-analysis of the deposited data

Results flagged for a closer look

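A library far from the others of its group was looked for in 222 sets of values, and 36 were found. The sets were the values of the named members and the summed share, by group. Chance alone gives about 1 in 20 for independent sets, and these sets share libraries. Of these, 29 were high values of WT striatum replicate 1, the library in which the members held 1.75% of the counts. In the large subunit it had 25.1 CPM of Rpl12, 487 of Rpl13a, 188 of Rpl15, 109 of Rpl22, 171 of Rpl27a, 214 of Rpl29, 304 of Rpl31, 145 of Rpl34, 236 of Rpl35a, 112 of Rpl36, 103 of Rpl36a, 186 of Rpl37a, 151 of Rpl38, 355 of Rpl41, 318 of Rpl7 and 462 of Rpl9. In the stalk it had 231 CPM of Rplp0, 584 of Rplp1 and 178 of Rplp2. In the small subunit it had 104 CPM of Rps12, 273 of Rps14, 374 of Rps15, 229 of Rps19, 308 of Rps24, 215.3 of Rps25, 231 of Rps27rt, 371 of Rps29 and 280 of Rps9. Its median member lay 0.49 on the log2 scale above the mean of the other WT striata.

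The remaining 7 were scattered. Rpl22l1 was high in striatum of treated replicate 5 at 61.8 CPM, the library with the low projection-neuron markers, and Rps27rt was low in treated replicate 2 at 125 CPM. In striatum of vehicle, Rpl31 was high in replicate 5 at 197 CPM, and replicate 3 was low for Rpl41 at 179 CPM and for Rps29 at 136 CPM. Rpl7l1 was low in WT striatum replicate 8 at 31.0 CPM, and Rps29 was low in treated cortex replicate 6 at 113 CPM.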

How the results depend on the processing

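The count of members called in R6/2 vehicle striatum against WT was 32, and it fell to 14 with library totals alone, to 13 by limma on log2 FPKM plus 0.1 or plus 1, and to 21 without WT replicate 1 and with library totals. For treated striatum against WT, 42 were called, and 15, 13, 13 and 22 under the same settings. For vehicle cortex against WT 19 were called, and 7 with library totals, 7 and 7 by limma. For treated cortex against WT 15 were called, and 5 with the library tag as a covariate, all lower. The tissue difference had 0 calls, and 1 with copies summed. Leaving out 1 library at a time gave 23 to 43 calls in vehicle striatum, 36 to 48 in treated striatum, 13 to 27 in vehicle cortex, 11 to 17 in treated cortex, and 0 in treated against vehicle in both tissues. DESeq2 called 1 member higher and 37 lower in vehicle striatum. The shares of all genes called by limma, by DESeq2, with the replicate block below and in most fits without 1 library are not given here. Those counts therefore do not show whether the members or all genes lost or gained calls.

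Single genes changed sign in the following cases. Rpl5 in vehicle striatum was -0.060 with copies summed, -0.0091 without vehicle replicate 3 and -0.0061 without vehicle replicate 5, up to 0.14 without WT replicate 1; with copies summed it was 0.046 in vehicle cortex and 0.15 in WT striatum over cortex. Without WT replicate 1 and with library totals, Rps15 was 0.0096 in vehicle striatum, and in treated striatum Rpl13a was 0.00070, Rpl36al 0.024, Rpl41 0.0043, Rps15 0.014 and Rps27rt 0.013. The cause was not tested. Replicate numbers did not pair libraries: of 22 pairs in each tissue, 1 in striatum and 4 in cortex correlated above 0.1. With the replicate block 34 members were lower and 1 higher in vehicle striatum, 18 and 1 in vehicle cortex, 41 and 1 in treated striatum and 9 and 4 in treated cortex. The number of animals and the estimated counts of near-identical genes limit these results.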

Other observations

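For 8 of the 82 members (9.76%), against 543 of 17219 genes tested in both tissues (3.15%), the 23 animals fell into separate ranges in the cortex, and the same animals, with at most 1 exception, took the same places in striatum. These sets were read from the values and are not groups of the study, and each held R6/2 and WT animals. Rps2, a small subunit protein at the messenger entry, had 182 to 211 CPM in the cortex of 9 animals (3 treated, 3 vehicle, 3 WT) and 89.2 to 117 CPM in the other 14. Its copy Rps2-ps10 had 1.55 to 3.21 CPM in the cortex of the 9 animals and 135 to 200 CPM in that of the 14. Rpl3, a core large subunit protein, had 404 to 525.7 CPM in the cortex of 15 animals, where Rpl3-ps1 had 7.05 to 16.1 CPM, and 283 to 351 CPM in that of 8 animals, where Rpl3-ps1 had 133 to 172 CPM. Rps3a1 had 253 to 296 CPM in 14 animals, where Rps3a2 had 0.800 to 2.25 CPM, and 149 to 178 CPM in 9 animals, where Rps3a2 had 51.0 to 64.3 CPM. Rpl21, Rpl26, Rps18, Rps7 and Rpsa showed the same kind of split, each opposite to a copy. Such members had wide errors in the group comparisons: Rps2 changed by -0.08 ± 0.24 in vehicle striatum against WT (adjusted p = 0.80, edgeR), and by -0.05 without WT replicate 1.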
